A study of Mus musculus with 6 samples.

Results

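The 9 genes Tnfaip6, Vcan, Has1, Has2, Has3, Cd44, Hyal1, Hyal2 and Cemip make, bind or break down hyaluronan, and they are described here in fibroblasts of the neonatal mouse intestine. They were taken by symbol from a gene table of 15238 genes, and all 9 were measured. The set was chosen by a rule that used measured values, namely the expression difference between the genotypes in these same libraries, so the differences of its members between genotypes are given as a description and not as a test. The study asked, per its title, about eosinophils and the postnatal differentiation of villus smooth muscle. Bulk RNA came from CD45-, EpCAM-, CD31- and podoplanin+ cells, sorted from the gut of 9-day-old (postnatal day 9) Balb/c mice. The 3 control libraries (replicates 1, 3 and 4) came from wild-type pups, and the other 3 (replicates 4, 9 and 10) from DdblGata1 pups. Values by library are given below in this order. DdblGata1 is a germline deletion of a GATA-binding element in the promoter of Gata1, a transcription factor of blood cells, and leaves the animals without eosinophils. Every tissue cell carries the deletion. Pups of both genotypes had their intestines stripped of epithelium with EDTA and digested with Liberase and DNase at 37 °C before the sort. No label states whether the libraries are from separate animals, so p-values measure the spread among libraries, which may in part be technical.

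Hyaluronan is a long, unbranched sugar polymer of the extracellular matrix. It is not built in the Golgi like other glycosaminoglycans: the synthases Has1, Has2 and Has3 sit in the plasma membrane and extrude the chain from UDP-sugars of the cytosol. Outside the cell, the secreted protein TSG-6, encoded by Tnfaip6, transfers heavy chains of inter-alpha-inhibitor onto the polymer, the proteoglycan versican (Vcan) binds along it, and cells hold it through the receptor CD44. Hyal1 and Hyal2 are hyaluronidases of the lysosome and the cell surface, and Cemip is needed for hyaluronan breakdown by fibroblasts. Mesenchymal cells are the main makers of hyaluronan in many tissues, and TSG-6 is best known as a product of cells exposed to inflammatory cytokines.

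Total estimated counts over the gene table were 28110454 to 31210800 per library. Pdpn, the gene of the sorted antigen, stood at 26.2 to 61.1 TPM (abundance per transcript length, scaled to a fixed total per library), and 7 fibroblast markers summed to 45972 to 67688 TPM. Ptprc (CD45) was at 0.363 to 1.96 TPM and Pecam1 (CD31) at 2.32 to 5.12. Of 6 mast cell and eosinophil markers, the eosinophil peroxidase gene Epx was at 0 in every library. Prg2 was at 0.182 to 0.552 TPM in wild-type and 0 to 2.33 in DdblGata1, the 1 marker with a higher mean there. Siglecf was at 0.135 to 1.185 and 0.036 to 0.176 TPM, and Kit at 45.3 to 83.3 and 14.3 to 55.8. The mast cell genes Cpa3 and Mcpt4 were far below Kit. Cpa3 was at 0.1 to 1.85 TPM in wild-type and 0.182 to 0.642 in DdblGata1. Mcpt4 was at 0 to 2.28 TPM in wild-type and 0 in DdblGata1. Wild-type replicate 1 stood apart: 7 epithelial markers summed to 564 TPM there against 131 to 226 in the other libraries, with Epcam at 101 TPM against 13.5 to 25.6. Its 7 leukocyte markers summed to 29.3 TPM against 5.94 to 16.9. For many genes below, the fold change is given with and without this library. Pericyte markers summed to 717 to 940 TPM in wild-type and 559 to 602 in DdblGata1 without overlap, and 4 of 5 were lower at an unadjusted edgeR p under 0.05 (4.23% of all genes). Smooth muscle markers, 7 of 7, had lower means in DdblGata1, but their sums overlapped (8278 to 13066 TPM in wild-type, 5821 to 8878 in DdblGata1). Of these 7, 4 were lower at an unadjusted edgeR p under 0.05 (4.23% of all genes), and DESeq2 called 1 lower (0.492% of all genes). The 6 blood endothelium markers summed to 31.5 to 41.4 TPM in wild-type and 51.2 to 79.0 in DdblGata1, higher without overlap. Tek, the largest part of this sum, was at 11.1 to 21.0 and 34.0 to 59.8 TPM. Pecam1, Cdh5, Kdr, Vwf and Egfl7 each overlapped between the groups. By mean TPM 4 of the 6 markers were higher in DdblGata1, while Cdh5 and Vwf were lower. DESeq2 called 1 of the markers higher (0.971% of all genes). The part of these cells in the results below was not tested. In bulk RNA, fewer cells of a type and less RNA per cell cannot be told apart.

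Among the hyaluronan genes, Tnfaip6 and Has2 had higher levels in all 3 DdblGata1 libraries than in any wild-type library, Cemip had lower ones by a narrow margin, and the other 6 overlapped between genotypes. By fitted values 5 members were higher in DdblGata1 (Tnfaip6, Has1, Has2, Vcan, Has3) and 4 lower (Cd44, Hyal1, Hyal2, Cemip). The median log2 fold change over the 9 genes was 0.26 beside -0.01 over all genes, of which 49.3% were above 0. With edgeR's quasi-likelihood test and Benjamini-Hochberg adjustment over all genes, 0 of 9 members and 0% of all genes passed 0.05. At an unadjusted p under 0.05, edgeR had 2 members, Tnfaip6 and Has2, both higher, beside 6.03% of all genes on the higher side and 10.3% on either. Without wild-type replicate 1, edgeR had 1 member at that level. DESeq2 called 1 of the 8 members to which it gave an adjusted p, Tnfaip6, beside 0.971% of genes called higher and 1.46% called in either direction. Groups that did not overlap were found upward for 2 members and downward for 1, beside 8.98% and 7.34% of all genes (16.3% in either direction). Since the members were chosen with this contrast known, nothing is read from these shares. The plot of CPM, counts scaled between libraries by TMM, shows each library.

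**Figure D1:**
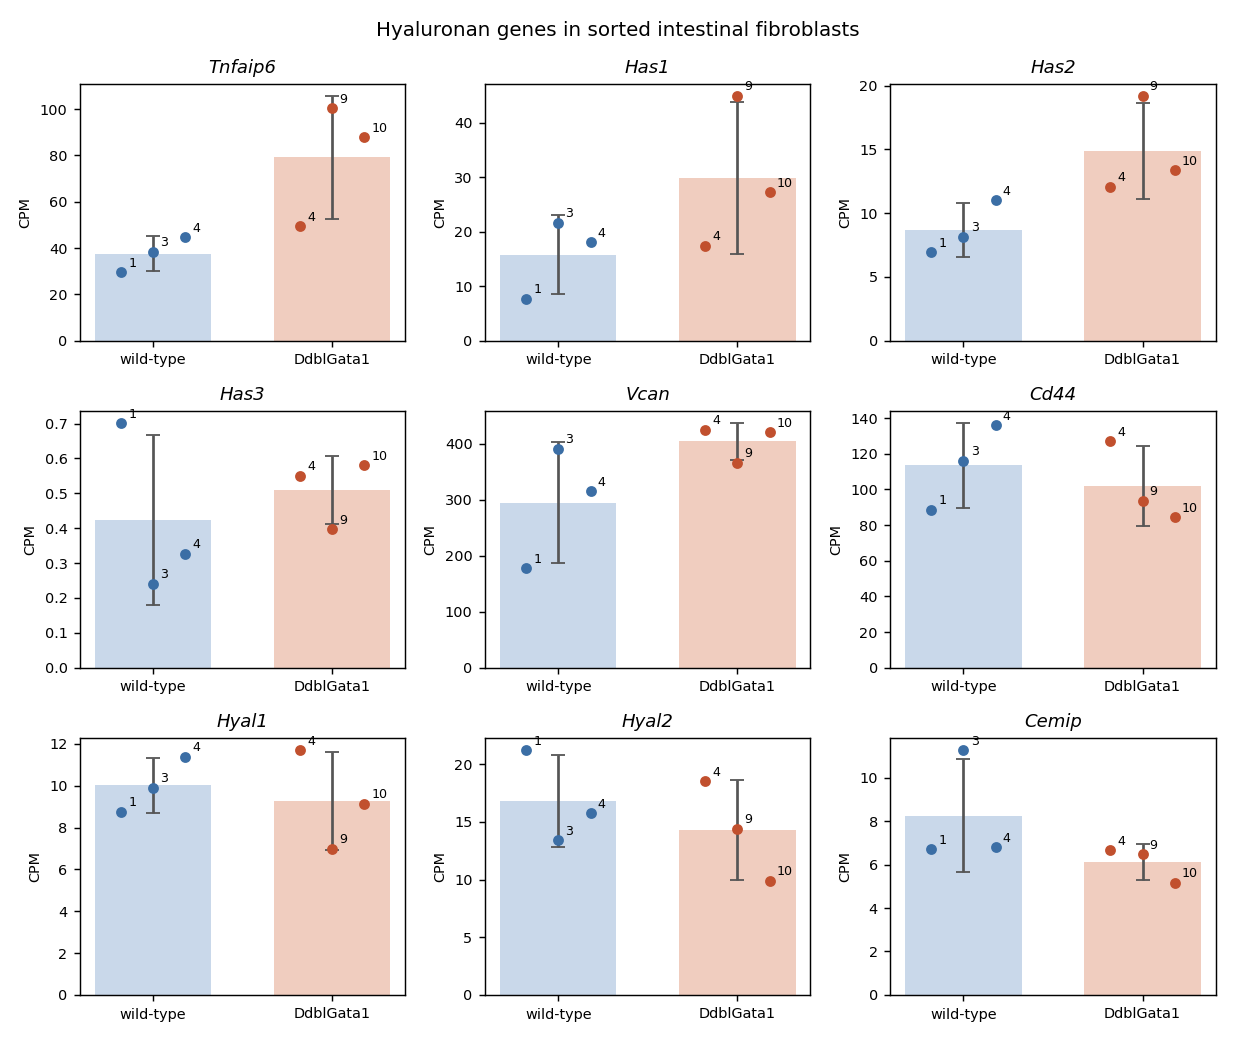
Each panel plots 1 hyaluronan gene in CPM (counts scaled by TMM to a common library size) for the 3 wild-type and 3 DdblGata1 libraries; points are libraries with their replicate numbers, bars are means and whiskers are SD. Tnfaip6 lay between 29.6 and 44.7 in wild-type and between 49.3 and 100.4 in DdblGata1, while Cd44, Hyal1 and Hyal2 were intermixed.

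Tnfaip6 had about 2.11 times its wild-type level in DdblGata1 fibroblasts. In CPM it stood at 29.6, 38.3 and 44.7 in the wild-type libraries. It stood at 49.3, 100.4 and 87.8 CPM in the DdblGata1 ones. The DdblGata1 libraries were not alike: replicate 4 lay just above the highest wild-type library, and replicates 9 and 10 far above it. The means were 37.5 ± 7.57 and 79.2 ± 26.6 CPM (SD, n = 3 each), and the fitted log2 fold change was 1.08 ± 0.28 (SE). Leaving out wild-type replicate 1 gave 0.91 ± 0.29, and leaving out DdblGata1 replicate 9 gave 0.85 ± 0.29. DESeq2's call of Tnfaip6 was lost on leaving out wild-type replicate 1 or 3 or DdblGata1 replicate 9 or 10, and was kept without wild-type replicate 4 or DdblGata1 replicate 4. Between 971 and 3034 estimated counts per library lie behind these values.

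Genes of the immediate early response, which are transcribed within minutes of a stimulus or of cell handling, had higher summed levels in DdblGata1, as Tnfaip6 did. Of 21 measured in the gene table, 16 were higher at an unadjusted edgeR p under 0.05 (6.03% of all genes), 0 passed the adjusted threshold and DESeq2 called 4 as higher (0.971% of all genes). The 22 listed genes summed to 4533, 4467 and 4852 TPM in the wild-type libraries and to 6521, 7985 and 6768 TPM in the DdblGata1 ones. All 22 had higher mean TPM in DdblGata1, and the sums did not overlap. By fitted values, which are scaled by TMM as TPM are not, 20 of the 21 were above 0 and 1 below. DdblGata1 replicate 9, the library with the most Tnfaip6, also had the highest sum, and replicate 4 the lowest sum of its group. Summed TPM of 8 glucocorticoid-induced genes was 190 to 219 in wild-type and 228 to 426 in DdblGata1, with 8 of 8 higher by mean TPM and 7 of 8 by fitted value. Markers of macrophages, cells known to make cytokines that induce Tnfaip6, summed to 23.1 to 51.9 TPM in wild-type and 24.0 to 33.1 in DdblGata1. Of these 6 markers, Adgre1 and Mrc1 were under 1 TPM in every library, and 1, Cd68, had a higher mean in DdblGata1. Cd68 was at 8.97, 4.38 and 3.55 TPM in the wild-type libraries, against 5.22, 12.7 and 9.86 in the DdblGata1 ones. Lyz2 was at 15.8 to 30.3 TPM in wild-type and 10.7 to 15.3 in DdblGata1. The part of these genes in the Tnfaip6 difference was not tested.

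Tnfaip6 lies on chromosome 2 (GRCm38, 52038009 to 52056686, plus strand), where GENCODE M21 gives it 1 transcript. Its promoter is shown because Tnfaip6 is the member with the highest fold change. Has2, lowest and highest in the same 2 DdblGata1 libraries as Tnfaip6, had no promoter window, nor had Has3. The promoter of Has1 is shown because Has1, although its groups overlapped, had the same lowest and highest DdblGata1 libraries. Both windows run from 250 bases before to 50 bases after the RefSeq start (GRCm38.p6), chr2:52037863-52038162 on the plus strand for Tnfaip6 and chr17:17855139-17855438 on the minus strand for Has1, and are written 5′ to 3′ with motif matches in capitals.
Tnfaip6: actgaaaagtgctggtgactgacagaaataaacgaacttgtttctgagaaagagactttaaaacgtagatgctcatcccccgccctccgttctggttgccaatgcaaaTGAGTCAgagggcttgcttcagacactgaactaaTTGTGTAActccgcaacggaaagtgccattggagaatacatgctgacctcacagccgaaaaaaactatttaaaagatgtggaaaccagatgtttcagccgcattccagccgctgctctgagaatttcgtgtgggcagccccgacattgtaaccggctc
Has1: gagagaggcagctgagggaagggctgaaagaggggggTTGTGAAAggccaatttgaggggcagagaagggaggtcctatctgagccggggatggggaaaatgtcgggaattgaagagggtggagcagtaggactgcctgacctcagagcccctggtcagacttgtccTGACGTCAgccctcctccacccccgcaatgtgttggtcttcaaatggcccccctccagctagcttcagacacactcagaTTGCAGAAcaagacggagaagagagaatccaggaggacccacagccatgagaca
The Tnfaip6 window held the AP-1 motif TGANTCA as TGAGTCA, 142 bases before the start, and the C/EBP motif TTNNGNAA as TTGTGTAA, 108 bases before it. The Has1 window held the cyclic AMP response element TGACGTCA, 83 bases before the start, and 2 C/EBP matches, TTGTGAAA and TTGCAGAA, 213 and 4 bases before it. None of these matches overlapped another. On both strands, 7.81% of 32851 mouse windows of the same length held the AP-1 motif, 1.79% held TGACGTCA and 40.7% held the C/EBP motif. The NF-kB motif, searched as GGG and TTCC with 3 bases between (5.56% of all windows), and the glucocorticoid response element, searched as GNACA and TGTNC with 3 bases between (0.475%), had no match in the 7 members with a window. TATAAA (13.6%) matched in Cemip alone. A match describes letters in a window and is neither a binding site nor a cause.

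The synthase RNA of these fibroblasts was mostly Has1, with less Has2 and almost no Has3, and this order held in every library. Summed TPM of the 3 synthases was 8.40, 17.6 and 17.9 in the wild-type libraries. The same sum was 18.6, 41.9 and 25.2 in the DdblGata1 ones. Every DdblGata1 sum was above every wild-type sum, but DdblGata1 replicate 4 by little. Has1 made up 71.4% ± 9.11 of this sum in wild-type and 74.3% ± 4.98 in DdblGata1, and Has2 27.6% ± 8.16 and 25.1% ± 4.69 (SD, n = 3 each). The make-up of the synthases thus differed between genotypes by less than its spread among libraries. Tnfaip6 per unit of synthase TPM was 3.58 ± 0.938 in wild-type and 3.93 ± 0.677 in DdblGata1, again within the spread.

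Has1 stood at 7.72, 21.6 and 18 CPM in the wild-type libraries, against 17.4, 44.9 and 27.3 CPM in the DdblGata1 ones. The groups overlapped, since DdblGata1 replicate 4 lay below wild-type replicates 3 and 4. The fitted log2 fold change of 0.92 ± 0.44 became 0.57 ± 0.37 without wild-type replicate 1, the lowest library, and 0.48 ± 0.43 without DdblGata1 replicate 9, the highest. Mesothelial cells, which line the gut's outer surface, are known for strong hyaluronan synthesis, and 8 of 8 mesothelial markers had higher mean TPM in DdblGata1. Their sum was 131, 195 and 261 TPM in the wild-type libraries, against 224, 192 and 344 TPM in the DdblGata1 ones. DdblGata1 replicate 9, with the most Has1 of all libraries, had the lowest mesothelial sum of its group, and wild-type replicate 1 was lowest in both. The part of mesothelial RNA in the Has1 values was not tested. Has1 lies on chromosome 17 (17843323 to 17855205, minus strand).

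Has2, the synthase that the embryo's heart and vessels depend on, stood at 6.92, 8.14 and 11 CPM in the wild-type libraries. It stood at 12.1, 19.2 and 13.4 CPM in the DdblGata1 ones, so that the groups did not overlap but came within about 1 CPM of each other. The means were 8.70 ± 2.11 and 14.9 ± 3.80 CPM (SD, n = 3 each) with a log2 fold change of 0.77 ± 0.27. Without wild-type replicate 1, the lowest library, the log2 fold change was 0.61 ± 0.28. Within DdblGata1, all of Tnfaip6, Has1 and Has2 were lowest in replicate 4 and highest in replicate 9. The antisense gene Has2os overlaps Has2 (chromosome 15, 56665627 to 56694539, minus strand). The libraries were made with a stranded kit, but no source used here says whether the quantification used strand. Has3 rested on 7 to 23 estimated counts per library (0.241 to 0.702 CPM), too few to tell a difference: its log2 fold change of 0.26 ± 0.57 turned to -0.02 without wild-type replicate 3.

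Vcan, the large chondroitin sulfate proteoglycan that swells hyaluronan-rich matrix, stood at 178, 391 and 315 CPM in the wild-type libraries. It stood at 425, 366 and 421 CPM in the DdblGata1 ones. Wild-type replicate 3 lay above DdblGata1 replicate 9, and wild-type replicate 1 lay far below all others. The log2 fold change of 0.45 ± 0.27 was 0.17 ± 0.17 without wild-type replicate 1, the library with the most epithelial and leukocyte RNA, whose part in the Vcan values was not tested. In TPM, which divides by transcript length and is not scaled further between libraries, the groups came apart: the wild-type libraries had 42.5, 90.1 and 78.9, the DdblGata1 ones 109.9, 94.0 and 103.5. Vcan therefore differed from Tnfaip6 in its pattern over libraries: its DdblGata1 values were close together, and Tnfaip6's highest library was its lowest of that group. Vcan lies on chromosome 13 (89655312 to 89742509, minus strand).

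Cd44, the main cell-surface receptor for hyaluronan, stood at 88.7, 116 and 136 CPM in the wild-type libraries, against 127, 93.6 and 84.5 CPM in the DdblGata1 ones. The groups were intermixed, with means of 114 ± 23.7 and 102 ± 22.4 CPM (SD, n = 3 each) and a log2 fold change of -0.16 ± 0.21. Within DdblGata1 the library lowest in Tnfaip6, Has1 and Has2, replicate 4, was the highest in Cd44. Wild-type replicate 1 had the lowest wild-type Cd44. Without that library the log2 fold change was -0.33 ± 0.20. Cd44 lies on chromosome 2 (102811141 to 102901665, minus strand).

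The genes of breakdown, Hyal2, Hyal1 and Cemip, all had fitted values below 0, but none had an unadjusted edgeR p under 0.05 or a DESeq2 call. Hyal2, which cuts long chains at the cell surface, stood at 21.2, 13.4 and 15.8 CPM in the wild-type libraries, against 18.6, 14.4 and 9.91 CPM in the DdblGata1 ones. Hyal1, the lysosomal hyaluronidase, stood at 8.75, 9.90 and 11.4 CPM in the wild-type libraries, against 11.7, 6.98 and 9.14 CPM in the DdblGata1 ones. Both genes were intermixed, with log2 fold changes of -0.23 ± 0.28 for Hyal2 and -0.11 ± 0.25 for Hyal1, and the sign of Hyal1 turned without DdblGata1 replicate 9. Hyal1 and Hyal2 are neighbours on chromosome 9, with 4148 bases between them. Hyal1 (107576927 to 107581710, plus strand) overlaps the annotated genes Hyal3 and Naa80 on its own strand, so the estimate of its reads is uncertain.

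Cemip stood at 6.71, 11.3 and 6.81 CPM in the wild-type libraries, against 6.67, 6.49 and 5.17 CPM in the DdblGata1 ones. The groups were separated by less than 0.1 CPM, and in TPM they overlapped, at 1.89 to 3.07 in wild-type and 1.5 to 2.03 in DdblGata1. The log2 fold change of -0.44 ± 0.29 was -0.15 ± 0.30 without wild-type replicate 3, the one high library. Cemip lies on chromosome 7 (83932857 to 84086502, minus strand). The plot of fold changes shows how far each gene moved over the other tests and over the libraries left out.

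**Figure D2:**
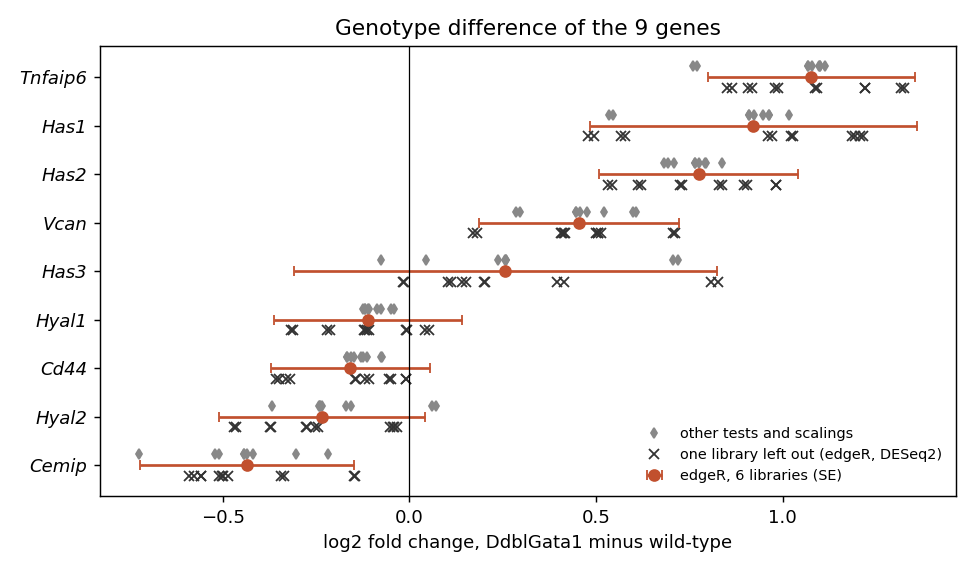
Fitted log2 fold change (DdblGata1 minus wild-type) of the 9 genes; circles with bars are the edgeR values with SE, diamonds other tests and scalings, and crosses the fits that leave out 1 library. Tnfaip6 ranged from 0.76 to 1.33 and Vcan from 0.17 to 0.71, while the values of Has3, Hyal1 and Hyal2 lay on both sides of 0.

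Per length, in TPM, the 9 genes ranged from 0.0568 for Has3 to 141 for Tnfaip6 in single libraries. In wild-type fibroblasts Vcan (42.5 to 90.1 TPM), Tnfaip6 (38.5 to 61.0) and Cd44 (37.5 to 60.3) were the most abundant, and each overlapped the next. Hyal2 (12.1 to 19.8) and Has1 (5.23 to 14.2) followed and overlapped each other. Below them came Hyal1 (5.45 to 7.44), then Has2 (2.99 to 4.99) and Cemip (1.89 to 3.07), which overlapped, and Has3 was last at 0.0568 to 0.186. In DdblGata1 fibroblasts Tnfaip6 (69.6 to 141 TPM) had the highest mean and overlapped Vcan (94.0 to 109.9), and both lay above Cd44 (36.8 to 58.2). Has1 (12.8 to 32.8) stood before Hyal2 (9.5 to 18.7) in that group, and Has2 (5.64 to 8.92) before Hyal1 (4.68 to 7.89), with overlap in both pairs.

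**Figure D3:**
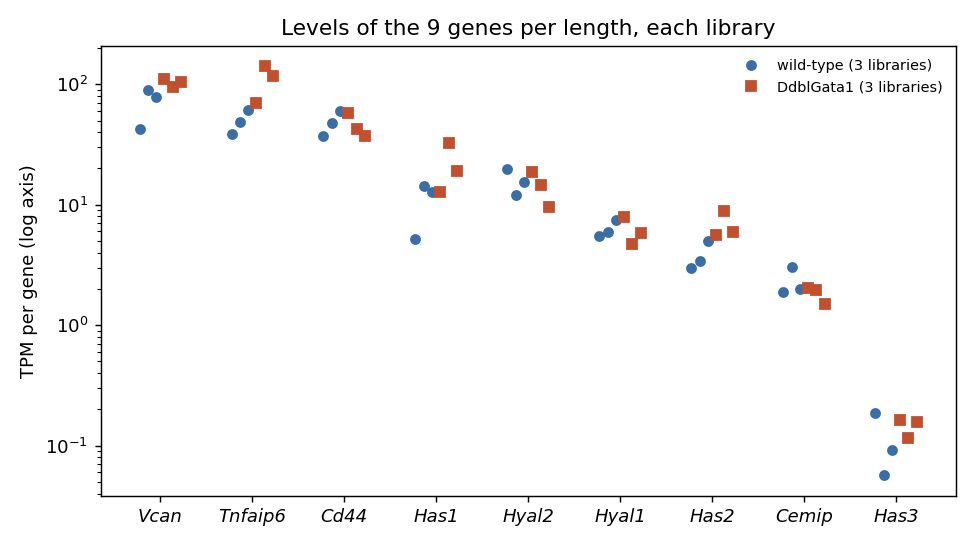
Level per length of the 9 genes in TPM on a log axis, with 1 point per library (circles wild-type, squares DdblGata1). Tnfaip6, Vcan and Cd44 lie between 36.8 and 141 TPM, and Has3 lies under 0.2 TPM in all 6 libraries.

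Versican RNA was mostly of the forms that carry the GAG-beta exon. Alternative use of 2 large exons, both of which encode attachment regions for chondroitin sulfate, gives versican V0 with both, V1 with GAG-beta only, V2 with GAG-alpha only and V3 with neither. GAG-alpha (2880 bases, chr13:89702918-89705797) and GAG-beta (5217 bases, chr13:89688285-89693501) are exons 7 and 8 of the V0 transcript on the minus strand of GRCm38. The junctions after exon 6 are shown from the GENCODE M21 transcripts of V0, V1 and V3. The last 20 bases of exon 6 are in lower case and the first 20 bases of the next exon in capitals. The junction shown for V0 leads into GAG-alpha, which V2 also carries, so it does not tell V0 from V2.
Vcan V0: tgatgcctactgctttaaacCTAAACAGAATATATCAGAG
Vcan V1: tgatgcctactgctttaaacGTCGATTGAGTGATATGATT
Vcan V3: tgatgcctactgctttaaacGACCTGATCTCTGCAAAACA
V1 took 45.2% ± 7.33 of Vcan TPM in wild-type and 44.7% ± 3.99 in DdblGata1, and V0 took 25.8% ± 0.884 and 29.8% ± 1.86 (SD, n = 3 each). V0 was at 25.0%, 25.5% and 26.7% in the wild-type libraries, against 28.8%, 31.9% and 28.6% in the DdblGata1 ones, without overlap, although by share of estimated counts (42.5% to 48.1% and 45.7% to 51.0%) the groups overlapped. V3 averaged 0.836% and V2 0.154% over the 6 libraries. An annotated fragment of 861 bases took 27.8% ± 8.40 and 23.6% ± 2.86 of TPM but only 1.76% of counts, so its share depends on the unit.

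Cd44 was estimated almost wholly as 2 transcripts. CD44s, the standard form, skips all variant exons, which add stretches to the stem of the receptor. The junction after exon 5 is shown for the standard transcript of 9 exons, for a transcript of 14 exons that includes 5 variant exons, and for one of 19 exons that includes them all, with the first 20 bases of the next exon in capitals (chromosome 2, minus strand, GENCODE M21).
Cd44 standard: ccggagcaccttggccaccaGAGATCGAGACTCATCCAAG
Cd44 with 5 variant exons: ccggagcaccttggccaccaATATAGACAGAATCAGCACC
Cd44 with all variant exons: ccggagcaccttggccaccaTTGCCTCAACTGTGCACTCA
The standard transcript took 43.1% ± 8.06 of Cd44 TPM in wild-type and 41.7% ± 5.17 in DdblGata1, and the one with 5 variant exons took 55.0% ± 7.23 and 56.1% ± 4.54 (SD, n = 3 each). These 2 transcripts also end differently, with last exons of 1791 and 3197 bases, so reads of the longer end count for the latter whether or not variant exons are used. Its share is therefore not a measure of variant exon use. Esrp1 and Esrp2 are epithelial splicing factors that promote Cd44 variant exons. They stood at 1.18 to 1.99 and 0.581 to 0.843 CPM in 5 libraries and at 7.5 and 4.82 CPM in wild-type replicate 1. Their log2 fold changes, -0.96 ± 0.66 and -1.50 ± 0.80, turned to 0.23 and 0.06 without that library. The share of the transcript with 5 variant exons was highest in wild-type replicate 1 (63.2%). DdblGata1 replicate 9 came next at 60.9%, with Esrp1 at 1.99 and Esrp2 at 0.761 CPM. The part of these factors in the shares was not tested.

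Transcript make-up was tested with diffSpliceDGE of edgeR on the 6 members with 2 or more transcripts that passed the filter. It called 0 of these 6, with 0 at an unadjusted Simes p under 0.05, beside 0.254% of 9447 genes. Tnfaip6 and Has2 have 1 annotated transcript each, and Has3 was too low. The plot of transcript shares gives Vcan and Cd44 by library.

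**Figure D4:**
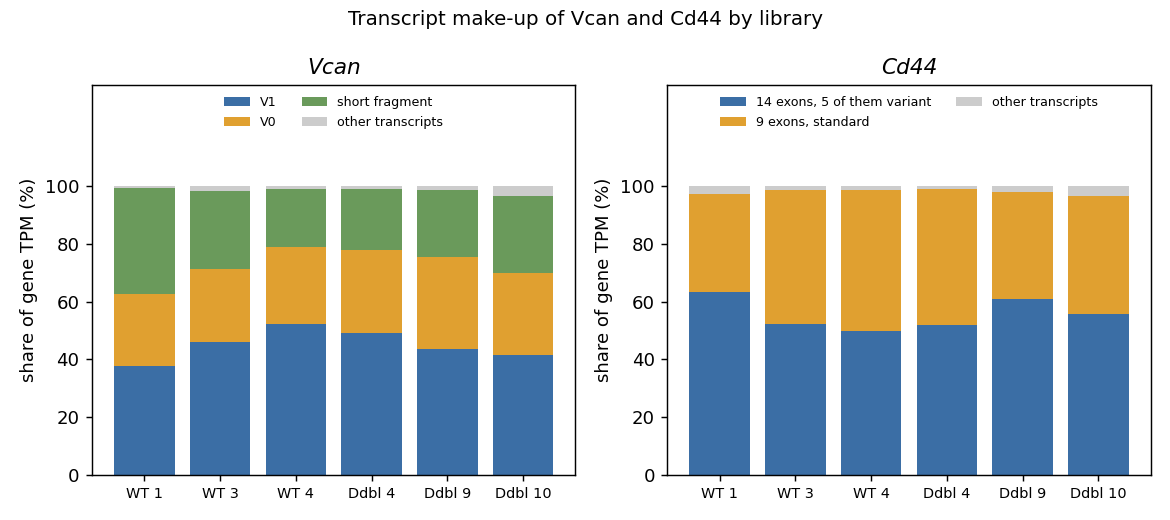
Share of each gene's TPM taken by its main transcripts in the 6 libraries (WT wild-type, Ddbl DdblGata1, with replicate numbers), as stacked bars in percent. Vcan V1 takes 37.5% to 52.1% and the 14-exon Cd44 transcript 49.7% to 63.2%, with no separation of the genotypes.

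Around the 9 members, a list of 68 further genes of hyaluronan biology, with its cytokine and prostaglandin inputs, was examined, and 59 were measured. With edgeR 0 of 59 passed the adjusted threshold, 12 were higher and 1 lower in DdblGata1 at an unadjusted p under 0.05, and DESeq2 called 5, all higher. Beside these, 6.03% and 4.23% of all genes were higher and lower at that unadjusted p, and 0.971% were called higher by DESeq2. The 13 genes without overlap between groups were all higher in DdblGata1, beside 8.98% of all genes without overlap upward and 7.34% downward. The list's median log2 fold change was 0.16 (-0.01 over all genes). Since the list was chosen with earlier results of these data known, nothing is read from these shares. The 5 DESeq2 calls, Ugdh, Gfpt2, Adamts5, Il1r1 and Il6, had an edgeR adjusted p of 0.384 each. Il1r1 and Il6 belong to the cytokine and prostaglandin inputs.

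Precursor supply held 2 of these 5 calls, 1 for each sugar of the hyaluronan repeat. Ugdh makes UDP-glucuronic acid and stood at 103, 147 and 125 CPM in the wild-type libraries, against 190.1, 192 and 210.2 CPM in the DdblGata1 ones (log2 fold change 0.66 ± 0.16). Gfpt2, an isoform of the enzyme that commits fructose-6-phosphate to UDP-N-acetylglucosamine, stood at 38.3, 83.5 and 65 CPM in the wild-type libraries, against 122, 125 and 145 CPM in the DdblGata1 ones (1.07 ± 0.26). Both were higher in all 3 DdblGata1 libraries than in any wild-type library (8.98% of all genes), with narrow spread within DdblGata1. Without wild-type replicate 1 the log2 fold changes of Ugdh and Gfpt2 were 0.51 ± 0.15 and 0.79 ± 0.18. DESeq2 called Ugdh in 4 and Gfpt2 in 5 of 8 fits, which were the 6-library fit, the 6 that left out 1 library and 1 with surrogate variables. Uap1, which makes UDP-N-acetylglucosamine, had 38.6 ± 3.89 and 49.6 ± 0.982 CPM (0.36 ± 0.14, unadjusted edgeR p 0.0323). The other isoform, Gfpt1, was at 0.11 ± 0.19. Of 8 precursor genes, 6 had values above 0.

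Of 9 matrix partners measured, Ptx3 was the one with an unadjusted p under 0.05. Ptx3, a pentraxin that crosslinks the heavy chains which TSG-6 places on hyaluronan, stood at 2.87, 5.72 and 6.22 CPM in the wild-type libraries, against 7.70, 11.9 and 15.2 CPM in the DdblGata1 ones (log2 fold change 1.23 ± 0.37, unadjusted edgeR p 0.0102, adjusted 0.416). The groups did not overlap, and without wild-type replicate 1 the log2 fold change of Ptx3 was 0.93 ± 0.32. Itih5, an inter-alpha-inhibitor heavy chain and the most counted gene of this list, had 1265 ± 521 and 1863 ± 172 CPM, and its log2 fold change of 0.56 ± 0.31 was 0.24 ± 0.19 without wild-type replicate 1. The link protein gene Hapln3 was at -0.73 ± 0.38.

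Among 7 further receptors, Tlr4 and Tlr2, innate sensors that hyaluronan fragments are reported to engage, had unadjusted edgeR p of 0.0111 and 0.0244. Tlr4 had 19.9 ± 5.14 and 37.6 ± 11.9 CPM (log2 fold change 0.92 ± 0.28), and Tlr2 had 7.56 ± 1.28 and 12.4 ± 3.31 CPM (0.71 ± 0.26). Layn, a membrane lectin that binds hyaluronan, had 5.73 ± 0.648 and 8.0 ± 0.882 CPM (0.48 ± 0.23). All 3 were higher in each DdblGata1 library than in any wild-type library (8.98% of all genes). Without wild-type replicate 1 the log2 fold changes of Tlr4, Tlr2 and Layn were 0.70 ± 0.27, 0.65 ± 0.30 and 0.37 ± 0.25. Lyve1, the lymphatic hyaluronan receptor, was at 0.512 to 3.28 TPM. Of the 5 lymphatic endothelium markers listed, Prox1 was under 1 TPM everywhere, Flt4 at 0.277 to 1.12 and Reln at 0.348 to 1.88. Ccl21a, from the same list, was at 154 to 476 TPM in wild-type and 148 to 590 in DdblGata1. The part of lymphatic RNA in these values was not tested.

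Further genes of breakdown did not separate. Of 6 measured, 5 had values below 0 and 0 had an unadjusted edgeR p under 0.05 or a DESeq2 call. Cemip2, a membrane protein related to Cemip, had 21.2 ± 3.25 and 18 ± 1.05 CPM (log2 fold change -0.24 ± 0.18), and the lysosomal Gusb had 88.5 ± 8.02 and 80.5 ± 1.81 CPM (-0.14 ± 0.13). Hyal3 was at 0.646 to 1.40 CPM. Partners and sheddases of CD44 also had 0 of 7 at that level, with Rdx, which ties CD44 to actin, at 155 ± 17.5 and 178 ± 13.1 CPM.

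Proteases that cut versican were counted with chondroitin sulfate synthesis. Of these 13 genes, 4 were higher at an unadjusted edgeR p under 0.05 (6.03% of all genes). Adamts5, Adamts4, Adamts1 and Adamts15, all versican-cleaving enzymes, had log2 fold changes of 1.24 ± 0.32, 0.49 ± 0.17, 0.54 ± 0.22 and 0.53 ± 0.19. The listed proteases Adamts9 and Adamts20 were at -0.02 ± 0.23 and 0.41 ± 0.35, with unadjusted edgeR p of 0.926 and 0.273. Adamts5 stood at 71.9, 179 and 146 CPM in the wild-type libraries, against 264, 305 and 371 CPM in the DdblGata1 ones. It was called in 6 of the 8 DESeq2 fits and was 0.92 ± 0.20 without wild-type replicate 1. None of the chondroitin sulfate enzymes Xylt1, Xylt2, Chsy1, Chsy3, Chpf, Csgalnact1 and Csgalnact2 reached that unadjusted level.

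Of 9 cytokine and prostaglandin genes that act upstream of Tnfaip6 and the synthases in other cells, Il6 and Il1r1 were called by DESeq2. Il6 stood at 7.17, 7.52 and 6.58 CPM in the wild-type libraries, against 9.13, 38.8 and 36.5 CPM in the DdblGata1 ones. Like Tnfaip6, it was near wild-type in DdblGata1 replicate 4 and high in replicates 9 and 10, and without replicate 4 edgeR called it (adjusted p 0.043, 0.384 with all libraries). DESeq2 called it in 6 of 8 fits, not without DdblGata1 replicate 9 or 10. Il1r1, the receptor of interleukin-1, had 52.7 ± 6.29 and 87.7 ± 7.83 CPM (log2 fold change 0.74 ± 0.15) with no such spread. Its ligand Il1b, mostly a leukocyte product, stood at 3.57, 2.10 and 0.262 CPM in the wild-type libraries, against 0.11, 0.397 and 0.452 CPM in the DdblGata1 ones (-2.60 ± 0.92, unadjusted edgeR p 0.0217, adjusted 0.447). The highest Il1b was in wild-type replicate 1, the library with the most leukocyte RNA. Without it the log2 fold change of Il1b was -1.89 ± 0.92, and without wild-type replicate 4, the lowest of its group, it was -3.12 ± 0.65.

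**Figure D5:**
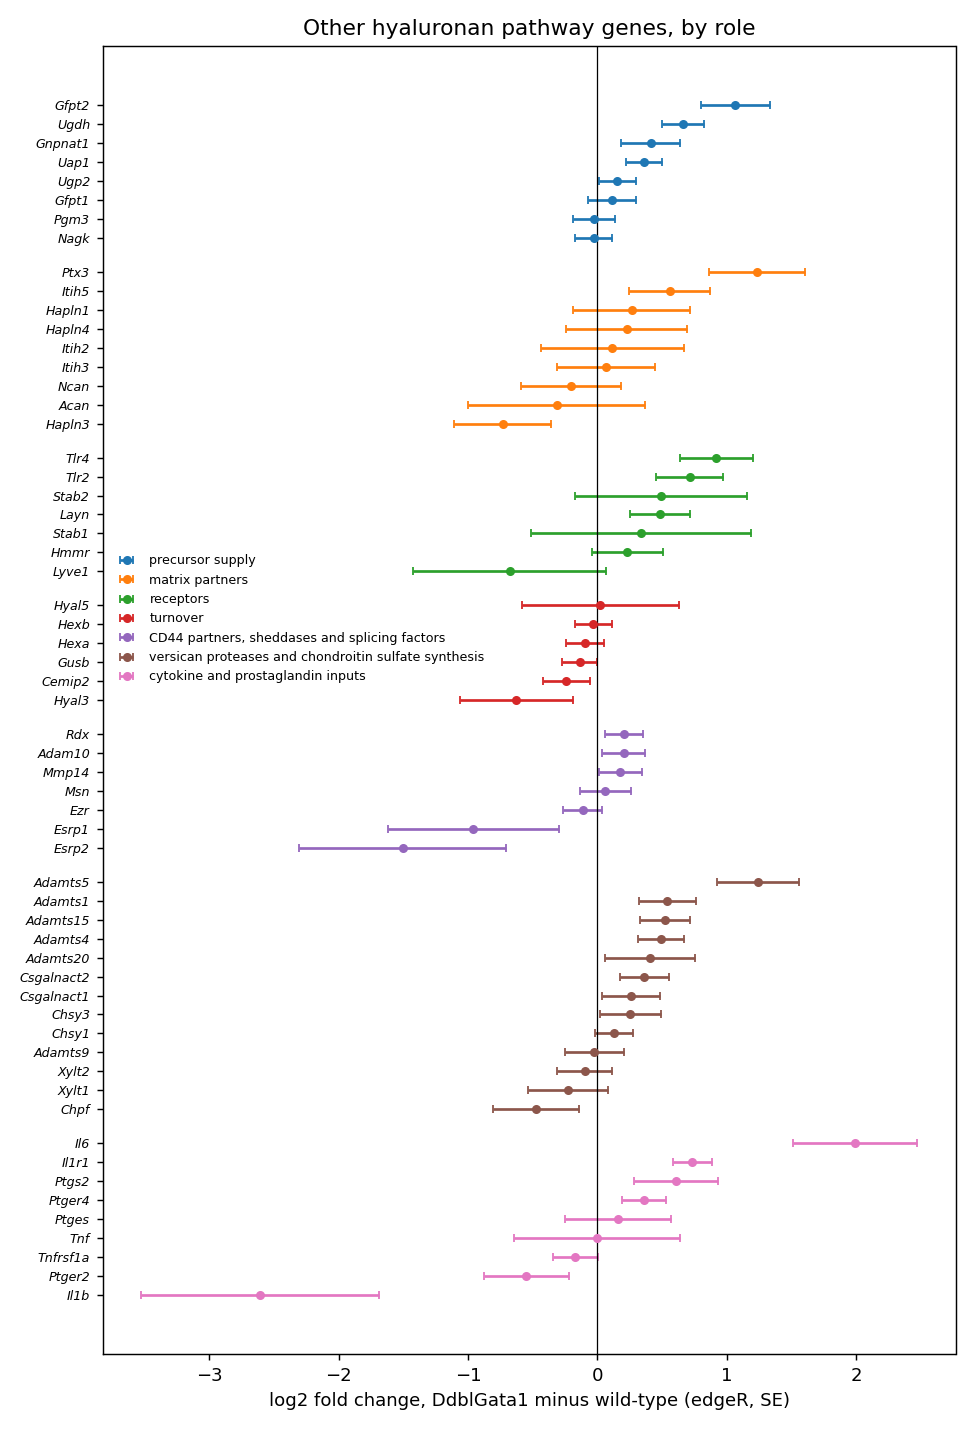
Fitted log2 fold change (DdblGata1 minus wild-type, edgeR) with SE of the 59 other hyaluronan pathway genes, coloured by role. Gfpt2 (1.07), Ptx3 (1.23), Adamts5 (1.24) and Il6 (1.99) lie farthest to the right, and Il1b (-2.60) farthest to the left.

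The genes whose pattern over the 6 libraries was nearest to Tnfaip6 were found by the root mean square difference of log2 CPM, each gene centred on its own mean, among 12834 genes. They were Gm42669 (0.122), Nfkbia (0.147), Nova1 (0.162), Gm2026 (0.168) and Zfp882 (0.173). Nfkbia, the inhibitor of NF-kB and one of its targets, stood at 51.2, 66.3 and 59.1 CPM in the wild-type libraries, against 76.3, 154 and 121 CPM in the DdblGata1 ones. Like Tnfaip6 it was lowest in replicate 4 and highest in replicate 9 of that group. Of the members, Has2 ranked 33 (0.246) and Has1 325 (0.359), followed by Vcan at 1948, while Cd44, Hyal1, Cemip and Hyal2 ranked from 8601 to 10956. Nearness over 6 libraries is a description and carries no test.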

How the data were processed

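RNA was measured in bulk in 6 libraries, 3 per genotype as given by the labels. The authors deposited estimated counts per gene, estimated counts and TPM per transcript with other values (transcript and effective lengths), and a sample sheet with a size factor per library (a ratio around 1) and 2 surrogate variables (a score each) of unstated method. Per the submitters' processing notes, bcl2fastq 2.2, kallisto, R 4.2.2 and DESeq2 were used with mm10 and GRCm38.p6, without the step each did. Of the deposited gene counts, 99.7% equalled length-scaled TPM within 1% plus 1 count. They are therefore corrected for transcript length, which lowers the effect of isoform changes on a gene's value.

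Counts, rounded to whole numbers, were tested in R 4.3.3 with edgeR 4.0.16 (TMM, filterByExpr, which removed 0 genes, robust quasi-likelihood fit, Benjamini-Hochberg over 15238 genes, threshold 0.05). Every gene deposited had at least 10 counts in 3 libraries. Transcripts were assigned with GENCODE M21, and their usage was tested with diffSpliceDGE (33127 transcripts). limma 3.58.1 on log2(TPM + 1) and on log2(TPM + 0.1), DESeq2 1.42.0, other scalings and filters, the deposited surrogate variables, plain sums of counts and leaving out each library were alternatives. DESeq2 without each library and with surrogate variables was added after the data were seen. The count and usage tests were run on simulated data with known changes. A count of 0 allows up to 3 counts (0.0961 to 0.107 CPM by library), which covers counting error only.

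The members and lists were chosen with earlier results of these data known. Named were all members, pathway genes past 0.05 by edgeR or DESeq2, the 3 smallest edgeR p per role, the 5 genes nearest Tnfaip6 (prior count 2, mean log2 CPM of at least 1) and transcripts of Cd44, Vcan and Tnfaip6 with at least 5% of TPM. Gfpt1, Lyve1, Adamts1, Adamts9, Adamts20 and the chondroitin sulfate enzymes were named beyond this rule after their values were seen. So were the transcripts of versican V2 and V3 and of Cd44 with all variant exons. Promoters are from RefSeq (GRCm38.p6) and covered 7 of the 9 members, all but Has2 and Has3.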

Additional observations from a re-analysis of the deposited data

How the results depend on the processing

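The 9 members had 0 calls in edgeR and limma with all libraries and 0 to 0 in edgeR on leaving out each in turn, and DESeq2 called 1 (Tnfaip6). DESeq2 also called 1 without wild-type replicate 4, without DdblGata1 replicate 4 and with surrogate variables, and 0 in its other 4 fits. Members at an unadjusted p under 0.05 numbered 2, and 1 to 3 in edgeR or 1 to 4 in DESeq2 without 1 library. Pathway genes called numbered 5 by DESeq2, 0 to 1 in edgeR and 0 to 10 in DESeq2 without 1 library (1 without DdblGata1 replicate 9, 3 without wild-type replicate 1 or 4), and 5 with surrogate variables. Over all genes edgeR called 0, or 0 to 1 without 1 library. DESeq2 called 214, or 449 with surrogate variables. Without wild-type replicate 1, 3 or 4 it called 106, 239 and 165, and without DdblGata1 replicate 4, 9 or 10 it called 1025, 84 and 43. The cause was not tested.

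Signs turned in 3 members. With surrogate variables Hyal2 was at 0.070 in edgeR and 0.060 in DESeq2. Has3 was at -0.075 on plain sums, and at -0.017 (edgeR) and -0.014 (DESeq2) without wild-type replicate 3, and ranged from -0.017 to 0.81 in edgeR over the libraries left out. Hyal1 was at 0.041 (edgeR) and 0.051 (DESeq2) without DdblGata1 replicate 9, with an edgeR range of -0.31 to 0.041. Without wild-type replicate 1, Esrp2 was at 0.055 and 0.065 and Esrp1 at 0.23 and 0.24, and their edgeR ranges were -1.93 to 0.055 and -1.37 to 0.23. Of 188 member values, 177 kept sign and side of the threshold. Tnfaip6 kept its sign in 21 alternatives. Usage calls stayed at 0 under the alternatives run. No paired analysis was possible because the groups share only replicate number 4. Has3, at 7 to 23 counts, is limited by depth, and the other genes by the spread of 3 libraries per group.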
